A study of Homo sapiens with 4 samples.

Results

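The 58 genes described here belong to families of RNA-binding proteins and RNA helicases, and their rule takes them by the start of the gene symbol among the 9667 genes listed in the 4 libraries. A gene was a member when its symbol began with HNRNP (3 genes), SRSF (7), RBM (15), DDX (10), DHX (6), PRPF (2), CPSF (2), SNRNP (3) or LSM (10), and no listed gene began with SF3. HNRNPH1, HNRNPF, RBM39 and DDX17 were left out, as were 3 antisense genes. The name rule does not follow function everywhere, since LSMEM1 is a membrane protein gene and not an Sm-like gene.

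The members encode proteins that handle RNA from transcription to decay. HNRNP proteins coat nascent transcripts and steer splice site choice, and SRSF (SR) proteins bind exons and recruit the splicing machinery. DDX and DHX genes encode DEAD-box and DEAH-box helicases, which use ATP to remodel RNA and RNA-protein complexes. SNRNP and PRPF genes encode spliceosome components, LSM genes encode Sm-like ring proteins of RNA processing and decay, and CPSF genes encode factors of messenger RNA 3′ end formation. Many SR protein genes control their own output through alternative exons that carry an early stop codon, and transcripts that include them are destroyed by nonsense-mediated decay (NMD).

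FLASH-seq links proteins to the RNA they touch with ultraviolet light, captures a biotin-tagged protein on streptavidin, and sequences the RNA fragments that remain after RNase I. All 4 libraries came from RPE1, an immortalised human retinal pigment epithelial line, in the background labelled iCas9 p53/puro-dKO, and all carried the CFAP20 knockout. The 2 CFAP20-KO libraries had no tagged protein and served as the negative control, and the 2 tagged-CFAP20 libraries came from these knockout cells expressing FLASH-BIO-CFAP20. Every library received 0.199 mJ/cm2 of UV-C light and 0.02 U/µL RNase I for 3 min. The comparison addresses whether CFAP20, a protein known from cilia, binds RNA. The labels name neither the promoter that drives the tagged protein nor the number of clones, and they do not say that replicates were separate cultures. The limma p-values therefore speak only of the spread among these 4 libraries, part of which may be technical. The exact binomial p-values pool the reads of each group, so they cover counting error only and no spread between libraries.

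The deposited value is a normalised read coverage in 200-bp bins, called signal, and 1 read overlapping 1 bin was worth 83.0 and 276.88 in CFAP20-KO replicates 1 and 2 but 12.9 and 13.9 in tagged-CFAP20 replicates 1 and 2. The CFAP20-KO libraries were far shallower, with 9143 and 3904 read overlaps inside genes against 165112 and 134814. On the members they held 158 and 64 overlaps against 3813 and 2959. A gene at 0 in both CFAP20-KO libraries could therefore hide a signal of 263 (3 reads pooled over both), a floor that covers counting error only, as do the intervals given here. Of the markers checked, LOX and TGFBI, expressed by adherent mesenchymal-like cells, had signal in all 4 libraries. The 4 listed markers of retinal pigment epithelium in tissue summed to 415 and 0 in CFAP20-KO and 796.9 and 794.2 in tagged-CFAP20. The 1 neuron marker listed stood at 0 and 0 against 141 and 209, under the floor, and CD3E of T cells and ALB of liver were at 0. In pulled-down bulk RNA, more of an RNA in the cell and more of it bound cannot be told apart.

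Sequences of some bins rich in tagged-CFAP20 reads are shown first, because the values on single exons given further on refer to them. Intron bins, which held most reads of members such as HNRNPC, are not shown. All are from hg38, printed 5′ to 3′ on the gene's strand. In the bins of DDX46, a helicase of the U2 snRNP, and of SRSF5 the capitals mark the exon of the canonical transcript. In the SRSF6 bin they mark an exon of a transcript without a defined coding sequence. For SRSF3 and SRSF7 only the central 30 bases of the richest bin are given. Their capitals mark an exon of transcripts that GENCODE 44 annotates as NMD targets. In SRSF7 only the first printed bases, down to position 38748898, lie in the exon chr2:38748898-38749346 given further on. The later ones are past its end and are in capitals because a longer annotated NMD exon spans them.
DDX46 exon 6, chr5:134777504-134777703, plus strand: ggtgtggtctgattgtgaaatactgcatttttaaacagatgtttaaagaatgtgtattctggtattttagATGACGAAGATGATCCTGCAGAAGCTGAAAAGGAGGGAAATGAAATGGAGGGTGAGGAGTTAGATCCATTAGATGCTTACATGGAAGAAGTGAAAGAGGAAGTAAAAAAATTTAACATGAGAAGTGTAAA
DDX46 exon 5, chr5:134773704-134773903, plus strand: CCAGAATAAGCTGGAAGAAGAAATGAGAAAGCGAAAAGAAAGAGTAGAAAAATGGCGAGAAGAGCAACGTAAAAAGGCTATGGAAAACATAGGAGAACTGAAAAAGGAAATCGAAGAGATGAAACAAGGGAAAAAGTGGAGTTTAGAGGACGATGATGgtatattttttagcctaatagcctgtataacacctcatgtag
SRSF5 exon 2, chr14:69768200-69768399, plus strand: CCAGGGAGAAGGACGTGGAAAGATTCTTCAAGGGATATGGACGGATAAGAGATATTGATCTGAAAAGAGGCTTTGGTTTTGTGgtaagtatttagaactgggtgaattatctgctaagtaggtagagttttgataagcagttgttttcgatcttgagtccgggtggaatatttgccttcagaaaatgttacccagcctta
SRSF6 alternative exon, chr20:43458628-43458827, plus strand: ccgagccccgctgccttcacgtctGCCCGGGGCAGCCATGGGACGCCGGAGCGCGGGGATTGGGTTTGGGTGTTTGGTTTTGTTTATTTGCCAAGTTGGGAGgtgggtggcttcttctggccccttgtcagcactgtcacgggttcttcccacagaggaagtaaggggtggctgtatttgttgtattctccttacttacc
SRSF3 NMD exon, chr6:36600153-36600182, plus strand: CACCCCCTTCGCCAACCAACTAAATCCAAC
SRSF7 NMD exon, chr2:38748879-38748908, minus strand: AAACTTGCAAGGTTTATTTTAAATACACAT

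Signal on the members together was higher with tagged CFAP20 in both libraries. The 58 genes summed to 13114 and 17720 in CFAP20-KO and to 49010 and 41229 in tagged-CFAP20, which is 15417 ± 3257 against 45119 ± 5502 (SD, n = 2 each), a ratio of 2.93. Over all genes the ratio was 2.17. The members made up 1.73% and 1.64% of the signal on all genes in CFAP20-KO and 2.31% and 2.19% in tagged-CFAP20. The groups do not overlap in this share, and no test was made of it. With each library scaled to the same total over the deposited windows downstream of gene starts, the members' ratio was 1.35 and that of all genes 1.01.

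The ratio of each family's summed signal is given as a description, and no test between families was made. On the deposited scale it was 4.85 ± 1.55 for SNRNP, 4.36 ± 2.09 for CPSF, 4.24 ± 0.757 for DHX, 3.53 ± 1.85 for PRPF, 3.25 ± 0.590 for SRSF, 2.80 ± 0.629 for DDX, 2.59 ± 0.733 for HNRNP, 1.96 ± 1.22 for RBM and 1.56 ± 0.247 for LSM genes (SD propagated from n = 2 libraries per group). Many of these ratios lie within each other's SD, and the CPSF value rests on CPSF6. Without CFAP20-KO replicate 2 the RBM ratio was 3.48, the PRPF ratio 5.30 and the CPSF ratio 6.34. Without CFAP20-KO replicate 1 they were 1.37, 2.65 and 3.33. With the same window totals, the SNRNP, CPSF, DHX, PRPF, SRSF and DDX ratios stayed above 1, from 1.29 (DDX) to 2.24 (SNRNP), and so did HNRNP, while the LSM ratio turned to 0.711 and the RBM ratio to 0.955. Of the gene signal, the SRSF genes held 0.405% and 0.359% in CFAP20-KO and 0.561% and 0.568% in tagged-CFAP20, whereas the LSM genes held 0.186% and 0.154% against 0.122% and 0.118%. In RBM and HNRNP genes the shares of the groups overlapped.

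Gene by gene, 13 of 53 members tested were higher with tagged CFAP20 and 0 were lower, by limma on log2(signal + 276.88) at an adjusted p of 0.05. Over all genes 23.5% of the 4461 tested were called higher and 0.0224% lower, so the members' count of 24.5% lies near that background. At an unadjusted limma p under 0.05, 26 of 53 members passed, against 2064 of 4461 genes. Both tagged-CFAP20 libraries lay above both CFAP20-KO libraries in 40 of 53 members, against 69.4% of all genes. For the 13 members and 1798 genes tested at 0 in both CFAP20-KO libraries, the filter fixed this outcome in advance. The median log2 change was 0.58 over the members and 0.37 over all genes, or 0.52 and 0.020 with the genes at 0 in both CFAP20-KO libraries set at their bound. The other 5 members, RBM11, DDX43, DDX53, RBMXL3 and RBMY1F, were at 0 in all 4 libraries.

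The calls depended on the scale between libraries and on the fit. With the same window totals limma called 0 members (14 at an unadjusted p under 0.05), and after quantile normalization also 0 (12 unadjusted). The median log2 change over all genes was 0.13 and -0.039 in these fits, and that of the members 0.18 and 0.025. An exact binomial test of pooled reads on the deposited scale called 14 of 48 members higher, against 8.99% of all genes tested that way, and 7 of these 14 were also called by limma. As shares of the gene signal the exact test called 0 of 48, against 0.11% of all genes called higher. Its unadjusted p was under 0.05 in 5 of 48 members, against 273 of 3649 genes. In both rescaled limma fits 0% of all genes were called higher. With no filter on low signal limma also called 0 members and 0% of all genes. The unadjusted p of that fit was under 0.05 in 25 of 53 members, against 1809 of 5998 genes. Without limma's trend 8 members were called against 9.98% of all genes, and CPSF4L, CPSF6, DHX16, HNRNPR, SRSF6 and SRSF7 lost their call. With precision weights 8 were called against 3.41%, and CPSF4L, DDX46, DHX16, HNRNPA0, LSM4, RBM34, RBM45 and SNRNP48 lost theirs.

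**Figure D1:**
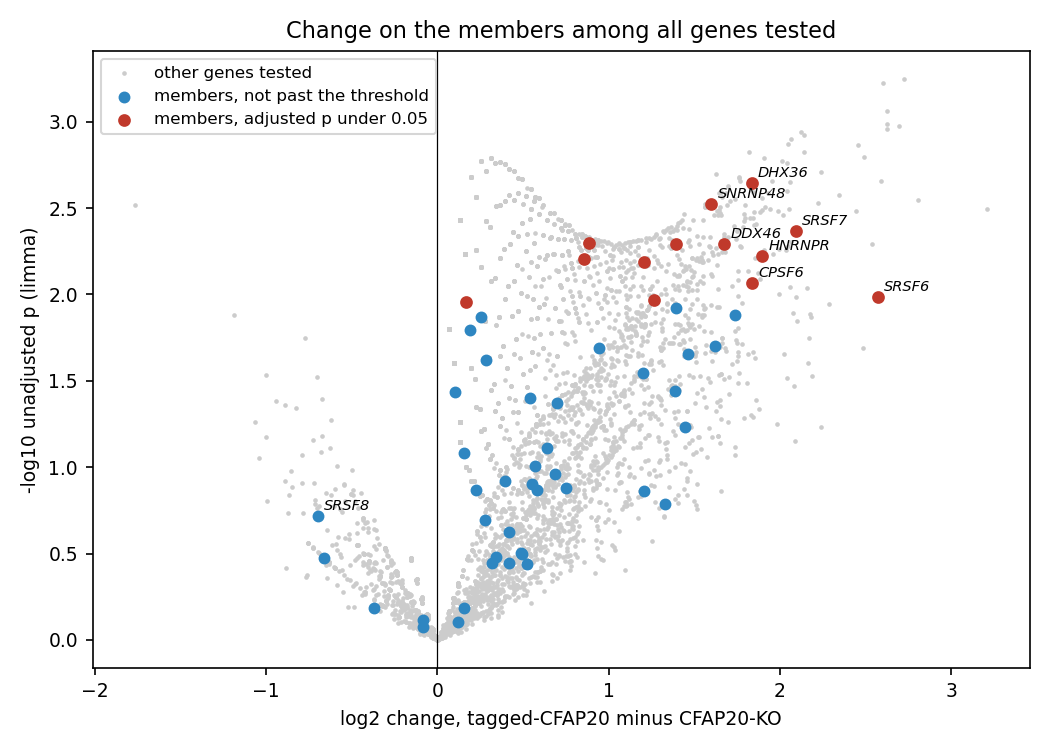
Each point is a gene tested, with its log2 change (tagged-CFAP20 minus CFAP20-KO, on log2(signal + 276.88)) against -log10 of the unadjusted limma p. The 13 members called higher lie right of 0 among many other genes, and on the scale of same window totals none of them passed the adjusted threshold.

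Among the SR protein genes, SRSF6 and SRSF7 were called higher. SRSF7 stood at 249 and 553.8 in CFAP20-KO and at 2545 and 2536 in tagged-CFAP20, 6.33 times as much (limma log2 change 2.09 with SE 0.34, adjusted p = 0.0373). The tagged-CFAP20 libraries were nearly equal and both far above the control. SRSF6 stood at 332 and 0 against 2828 and 1644, with a pooled read ratio of 8.85 (95% exact counting interval 2.95 to 44.7; log2 change 2.57, SE 0.54, limma adjusted p = 0.0477). Its signal may include reads of another coding gene annotated over it, since the coverage does not separate strands. Per kb of gene, SRSF6 and SRSF7 held a tagged-CFAP20 signal of 354 and 322. These were among the larger per-length levels, against 38.1 per kb for DDX46 and 105 per kb for CPSF6.

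SRSF5 and SRSF3 also had strong tagged-CFAP20 signal but did not pass in limma. SRSF5 had the second largest mean of the members, at 3496 and 3288 against 7 and 5 read overlaps in CFAP20-KO, a mean signal of 982.7 ± 568.1 (SD, n = 2), with a limma adjusted p of 0.0623, and it passed the exact binomial test of pooled reads (adjusted p = 2.20e-06). SRSF3, the smallest SR protein, stood at 1851 and 2006 against 11 and 3 read overlaps, a mean signal of 871.8 ± 58.2, in CFAP20-KO (limma adjusted p = 0.0633). As a share of the gene signal SRSF3 turned to the other side in the exact test on pooled reads (log2 -0.34). SRSF10 stood at 1118 and 961.4 against 8 and 2 read overlaps, a mean signal of 608.9 ± 78.0, and its log2 change of 0.57 (limma adjusted p = 0.173) became -0.28 with the same window totals.

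SRSF8 was the member with the most negative change. It stood at 166 and 553.8 in CFAP20-KO and 38.6 and 167 in tagged-CFAP20, on 2 overlaps in each control library, and the groups overlap (limma log2 change -0.70 with SE 0.44, adjusted p = 0.288). SRSF12 rested on 2 and 0 overlaps against 3 and 5.

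**Figure D2:**
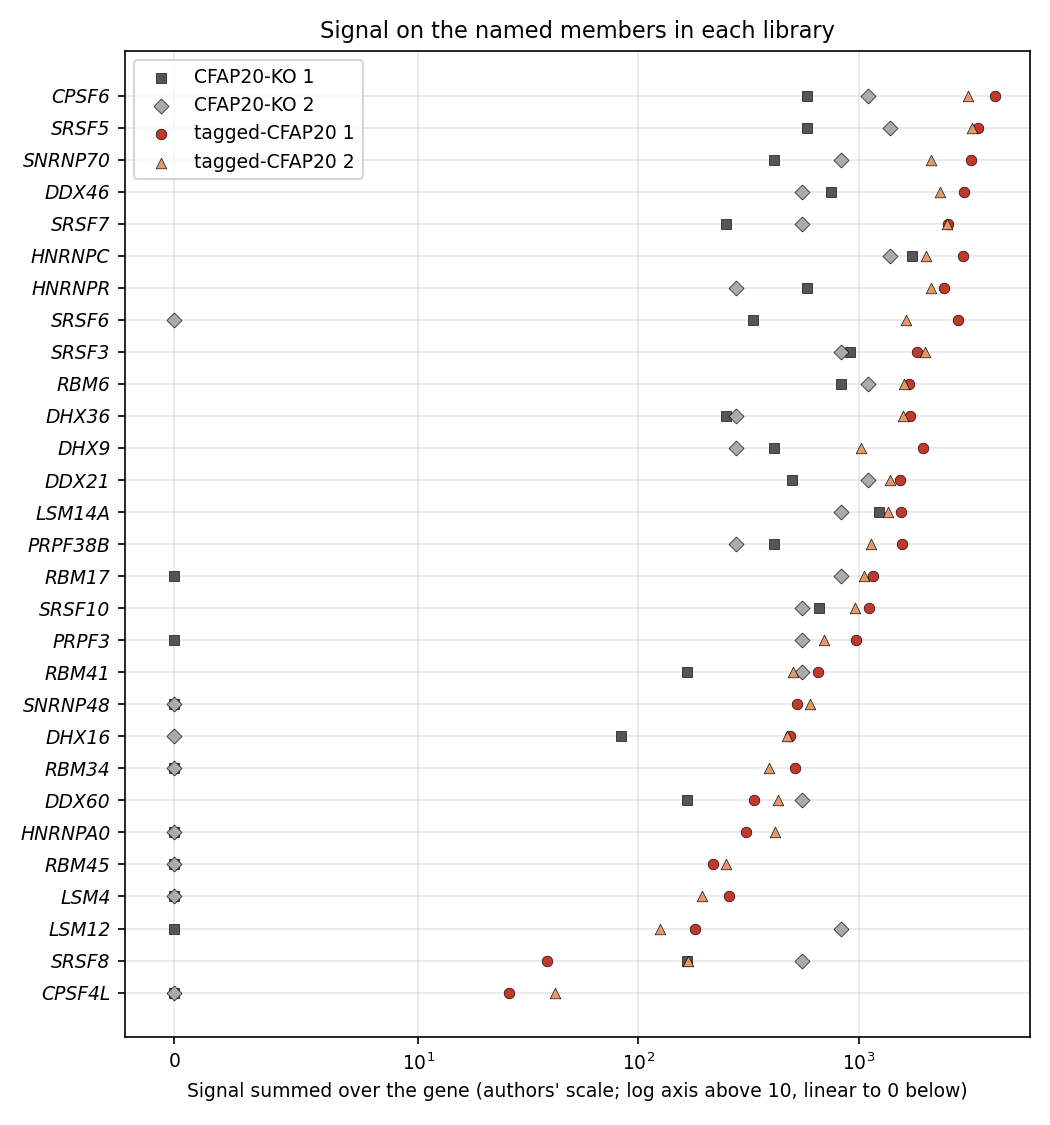
Signal summed over each named member (horizontal axis, logarithmic above 10 and linear to 0 below) in the 4 libraries, 1 symbol per library. Members run from CPSF6 at the top, with 4152 and 3149 in tagged-CFAP20, to CPSF4L at the bottom, and CFAP20-KO symbols at 0 lie on top of each other.

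CPSF6, a subunit of cleavage factor Im that guides the choice of polyadenylation site, had the largest tagged-CFAP20 signal of all members. It stood at 4152 and 3149 against 7 and 4 read overlaps in CFAP20-KO, a mean signal of 844.3 ± 372.3 (SD, n = 2), which is 4.32 times as much with groups well apart (limma log2 change 1.84 with SE 0.37, adjusted p = 0.0427). Its share of the gene signal was 0.196% and 0.168% against 0.0766% and 0.102% (exact binomial test on shares, unadjusted p = 0.0245, adjusted p = 0.491). Introns held 51.2% of its tagged-CFAP20 overlaps and coding exons 32.1%. CPSF4L was called as well (limma adjusted p = 0.0477), but on 2 and 3 overlaps in the tagged-CFAP20 libraries against 0, under the floor, and it lies over the gene C17orf80.

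SNRNP70, the U1 snRNP protein of 5′ splice site recognition, stood at 3239 and 2146 in tagged-CFAP20 against 415 and 830.6. Both tagged-CFAP20 libraries were above both controls, yet limma missed the threshold (log2 change 1.74, SE 0.39, adjusted p = 0.0526). SNRNP48, a protein of the minor spliceosome, was at 0 in both CFAP20-KO libraries and at 526.99 and 599.1 in tagged-CFAP20. Its tagged-CFAP20 mean was 2.14 times the floor (limma adjusted p = 0.0373). The exact counting interval of its pooled read ratio began at 1.68. SNRNP35, of the same minor spliceosome particle, stood at 141 and 195 against 166 and 0 and did not pass.

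The PRPF genes had 0 of 2 members called. PRPF38B, a factor related to a tri-snRNP protein, stood at 1581 and 1143 against 415 and 277 (limma adjusted p = 0.0501). PRPF3, of the U4/U6 snRNP, stood at 976.9 and 696.7 against 0 and 553.8, 3.02 times as much by mean signal. Its limma log2 change was 1.20 with SE 0.64 (adjusted p = 0.218). The pooled read ratio was 6.60 with an exact counting interval of 1.47 to 99.1. Both libraries with tagged CFAP20 lay above the control in each gene.

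Of the DEAD-box helicases, 1 of 8 tested was called. DDX46, which acts when the U2 snRNP joins the branch site, stood at 3021 and 2355 against 9 and 2 read overlaps, a mean signal of 650.4 ± 136.6 in CFAP20-KO (SD, n = 2), which is 4.13 times as much (limma log2 change 1.68 with SE 0.29, adjusted p = 0.0373). DDX21, a helicase of ribosomal RNA processing, stood at 1542 and 1393 against 498 and 1108 (log2 change 0.75, limma adjusted p = 0.213), and its change turned to -0.12 with the same window totals. DDX60, induced by interferon, had overlapping groups at 334 and 432 against 166 and 553.8.

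DEAH-box helicases had 2 of 6 members called. DHX36, which unwinds G-quadruplexes, stood at 1709 and 1588 in tagged-CFAP20 and 249 and 277 in CFAP20-KO, 6.27 times as much with little spread within either group (limma log2 change 1.83 with SE 0.25, adjusted p = 0.0373). DHX16, a splicing helicase, stood at 488 and 474 against 83.0 and 0. Its pooled read ratio was 7.54 with an exact counting interval of 1.03 to 1001.7, on 1 CFAP20-KO overlap (limma adjusted p = 0.0477). DHX9, RNA helicase A, was the second of the family by signal, at 1954 and 1031 against 415 and 277, and did not pass (limma adjusted p = 0.0672).

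Among the 3 HNRNP genes, HNRNPR and HNRNPA0 were called. HNRNPR stood at 2455 and 2132 against 7 and 1 read overlaps, a mean signal of 428.9 ± 215.0 (SD, n = 2), which is 5.35 times as much (limma log2 change 1.90 with SE 0.34, adjusted p = 0.0374). HNRNPA0 was at 0 in both controls and at 308 and 418 in tagged-CFAP20, a mean of 1.38 times the floor (limma adjusted p = 0.0383). The exact counting interval of its pooled read ratio began at 1.06. HNRNPC, which binds uridine tracts, had the largest CFAP20-KO signal of all members, at 1743 and 1384 against 2969 and 2034. Its log2 change of 0.58 (SE 0.31, limma adjusted p = 0.217) became -0.42 with the same window totals.

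RBM genes, named for an RNA-binding motif, had 2 of 12 tested members called, both at 0 in CFAP20-KO. RBM34 stood at 514.1 and 390, a mean of 1.72 times the floor (limma adjusted p = 0.0373), over part of ARID4B. The exact counting interval of its pooled read ratio began at 1.35. RBM45 stood at 219 and 251, below the floor, so the control could hide as much (limma adjusted p = 0.0373). The members of the family with most signal did not pass. RBM6 stood at 1697 and 1616 against 830 and 1108 (limma adjusted p = 0.145), and its log2 change of 0.64 became -0.28 with the same window totals. RBM17, a splicing factor of the branch site region, stood at 1170 and 1059 against 0 and 830.6. RBM41 had overlapping groups, at 655.5 and 501.6 against 166 and 553.8.

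LSM genes, with the lowest family ratio, had 1 of 10 called. LSM4, a subunit of the Sm-like rings, stood at 257 and 195 against 0 in both controls, below the floor (limma adjusted p = 0.0375). LSM14A, a processing-body protein, carried most of the family's signal, at 1555 and 1365 against 1245 and 830.6. Its log2 change of 0.42 (SE 0.30, limma adjusted p = 0.341) became -0.52 with the same window totals and -0.96 in the exact test of shares (unadjusted p = 0.0344, adjusted p = 0.586). LSM12 stood at 180 and 125 against 0 and 830.6, and its control value rests on 3 overlaps in CFAP20-KO replicate 2.

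Leaving out 1 library changed many of these calls. Without tagged-CFAP20 replicate 1, CPSF6, DDX46, DHX16, DHX36, HNRNPR, SRSF6 and SRSF7 lost theirs, with limma adjusted p from 0.126 to 0.266, and without tagged-CFAP20 replicate 2 the same 7 genes lost theirs, from 0.115 to 0.195. The 6 that were kept were all at 0 in both CFAP20-KO libraries. Without CFAP20-KO replicate 1 limma called 31 members higher and 3 lower, where 45.6% and 7.51% of all genes were called. Without CFAP20-KO replicate 2 it called 31 higher, where 46% of all genes were. Without tagged-CFAP20 replicate 1, and likewise without replicate 2, it called 13, of which 7 were not among the 13 called with all 4 libraries, where 40.4% of all genes were called higher.

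Other genes of RNA processing without these name starts were listed as well, among them splicing regulators (PTBP2, TRA2A, TRA2B, RBFOX2, KHDRBS1), Sm proteins of the snRNPs (SNRPC, SNRPD1, SNRPE) and the helicase gene AQR. Of that list 20 were in the tables and 19 were tested. PTBP2, TRA2A, TRA2B and SNRPE, 4 of 19, were called higher and 0 lower, against 23.5% of all genes called higher, and the summed ratio was 2.67. SNRPE was at 0 in both CFAP20-KO libraries, and its tagged-CFAP20 mean lay under the floor. The 5 with most signal were SFPQ, a paraspeckle protein, with a ratio of 1.75 (limma adjusted p = 0.338), PTBP2, a repressor of splicing, with 4.16 (0.0373), SRRM1, a splicing coactivator, with 5.42 (0.0526), FUBP1 with 2.57 (0.195) and EWSR1 with 3.25 (0.0684). Only PTBP2 of these 5 passed.

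Along the members, tagged-CFAP20 reads lay on exons more than the length of those exons would give. Coding exons made up 8.34% of the members' bins but 37.9% and 39.3% of tagged-CFAP20 read overlaps, and 25.9% and 39.1% of CFAP20-KO overlaps. Over all genes matched to GENCODE the coding share was 27.4% and 27.1% against 18.7% and 20.9%, on 4.46% of bins, so the members have both a larger share of reads and more coding bins. Intron bins held 36.4% and 32.8% of the members' tagged-CFAP20 overlaps and 52.5% and 40.6% in CFAP20-KO. The Wilson 95% intervals of the CFAP20-KO shares are wide, 18.9% to 34.8% and 25.8% to 52.6% for coding exons, and CFAP20-KO replicate 2 overlaps the tagged-CFAP20 libraries.

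Exons of NMD-annotated transcripts that lie outside the exons of the canonical transcript held a further part of the signal. They covered 1.07% of the members' bins and held 8.58% and 9.63% of tagged-CFAP20 overlaps, against 3.80% (Wilson 1.36% to 8.60%) and 6.25% (2.19% to 17.2%) in CFAP20-KO, on 6 and 4 overlaps. Both tagged-CFAP20 shares lie above both CFAP20-KO shares, no test between groups was made, and the wide intervals of CFAP20-KO replicates 1 and 2 reach 1 and both of the tagged-CFAP20 shares, respectively. Over all genes the same class held 1.34% and 1.38% with tagged CFAP20 and 0.779% and 0.746% without, on 0.312% of bins. In tagged-CFAP20 replicates 1 and 2 the members' bins of this class held 327 and 285 overlaps, of which 248 and 228 lay in 5 SRSF genes (SRSF7, SRSF5, SRSF3, SRSF6 and SRSF10) and 55 and 49 in SNRNP70.

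**Figure D3:**
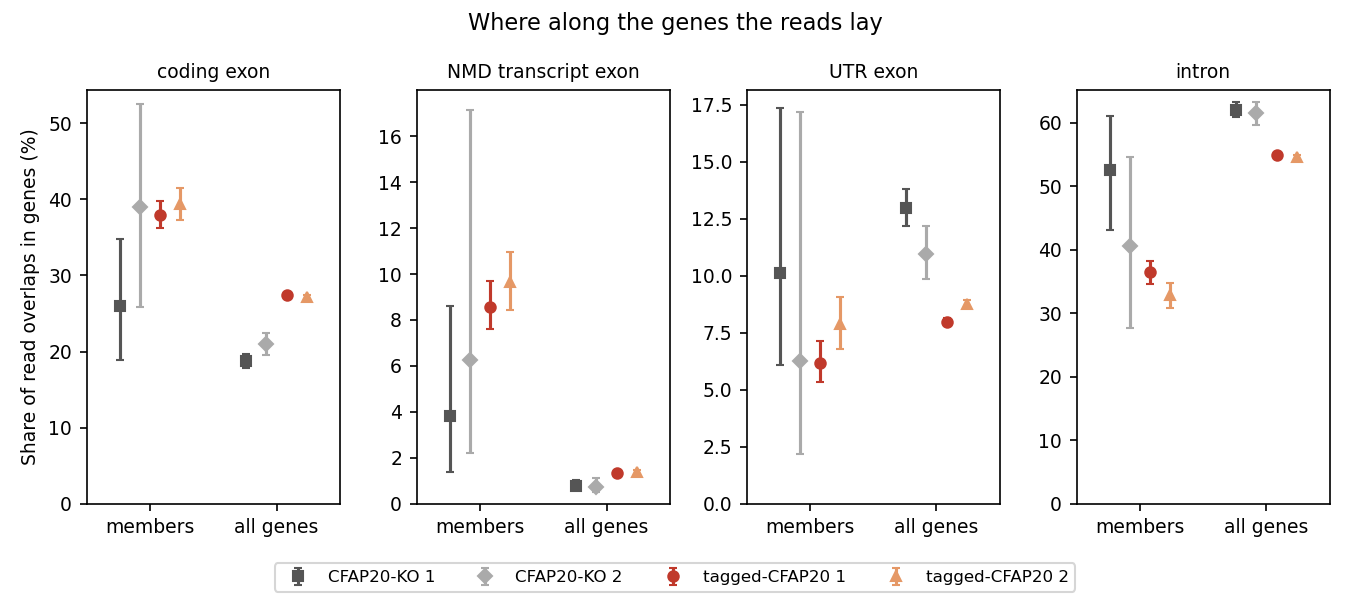
Share of read overlaps in 4 kinds of bin, for the members and for all genes matched to GENCODE, with 1 symbol per library and Wilson 95% intervals on reads. The members' coding exon and NMD transcript exon shares with tagged CFAP20, about 38% to 39% and 8.6% to 9.6%, lie above those of all genes in the same libraries, and the members also have more such bins (8.34% against 4.46% and 1.07% against 0.312%).

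The bins with most reads belonged to few genes. Counting bins with at least 20 tagged-CFAP20 overlaps gave 44 bins in 11 members, of which SRSF5 had 12, SRSF6 and SRSF7 7 each, SNRNP70 4, and DDX46 and SRSF3 3 each. Coding exons held 22 of the 44 and NMD transcript exons 13. The richest bin by tagged-CFAP20 overlaps lay on exon 8 of SRSF5, with 30 and 37 overlaps in tagged-CFAP20 and 2 and 2 in CFAP20-KO. As signal this is 385.6 and 515.5 against 166 and 553.8, so the groups overlap in that bin.

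Bins on exons annotated in NMD transcripts of SRSF3 and SRSF7 held a large part of the reads of these genes. In SRSF3 the exon at chr6:36599821-36600276 held 43 and 48 overlaps with tagged CFAP20 against 1 and 0, and 31.6% of the gene's tagged-CFAP20 overlaps lay in bins of this class, against 14.6% in its coding exons. In SRSF7 the bins on the exon chr2:38748898-38749346 held 61 and 76 against 0 and 2. The bin with 29 and 35 of these, chr2:38748794-38748993, reaches past the end of that exon. Bins of the NMD class took 37.1% of the gene's tagged-CFAP20 overlaps, against 47.1% in its coding exons. SNRNP70 had 55 and 49 against 2 and 1 in the bins on chr19:49102114-49103587. SRSF6 had 48 and 18 against 0 and 0 in the bins on chr20:43459153-43459420. Of these SRSF6 overlaps, 28 and 14 lay in a bin that begins before the exon, at 43459028. Outside that exon, the bins at 800, 1000 and 1600 bp held 41 and 13, 19 and 16, and 15 and 12 tagged-CFAP20 overlaps. Each exon count is that of whole 200-bp bins with at least 50 bp in the exon, so reads beside it can be included. All these counts are read overlaps and not signal. As signal, 1 overlap was worth 83.0 and 276.88 in CFAP20-KO and 12.9 and 13.9 in tagged-CFAP20. These exons also belong in part to retained-intron transcripts, and bins of 200 bp do not separate the transcripts.

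Other members had their reads on coding exons or introns. In DDX46 the bin of exon 6 printed above held 29 and 19 overlaps with tagged CFAP20 and 0 in each control. That of exon 5 held 19 and 18 overlaps against 1 and 2. As signal this is 244 and 251 against 83.0 and 553.8, so the groups overlap on exon 5. Coding exons took 54.7% of the tagged-CFAP20 overlaps of DDX46. In HNRNPC introns took 68.4%. In SRSF5, whose deposited gene begins far upstream of its coding exons, 56.5% lay in coding exons and 25.6% in NMD transcript exons.

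A purine motif was looked for in the bins rich in reads. GAAGAA, a purine-rich element of the kind that SR proteins bind, searched on the gene's strand as the letters GAAGAA only, was found in 5 of the 44 bins (11.4%), in 6.38% of the other bins of the same members and in 8.13% of all 8258 member bins. All 5 were coding exon bins, and among coding exon bins of these members the shares were 22.7% of 22 rich bins and 18.9% of the 90 others. Median purine content was 52.0% in the 44 bins and 48.0% in the other bins of the same members. The first 1 kb of the members held 6.29% and 6.12% of tagged-CFAP20 overlaps and 4.43% and 6.25% of CFAP20-KO overlaps, on 3.52% of the length, so the groups overlapped there.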

How the data were processed

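The members, gene lists and tests were chosen with earlier results of these data known. FLASH-seq was made from 2 CFAP20-KO and 2 tagged-CFAP20 libraries, grouped by sample titles. The authors deposited signal, a normalised read coverage in 200-bp bins around gene starts, as a table for each library. Other deposited columns, of no fixed unit, give gene position and length. Per the submitters' processing notes the build was hg38 and the tools, in no stated role, were R 4.0.5, HOMER 4.8.2, UMI-tools 1.0.0 and Bowtie2 2.3.5. Mapping settings, deduplication and the scaling target: not given in the sources used here. All values (100% within a tolerance of 0.01) were whole multiples of 1 step per library, taken as 1 read overlapping a bin. A read covered 1.37 bins on average, so whole reads were not recovered and no count model was the main test. Coverage is not split by strand, so overlapping genes cannot be told apart.

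Signal was summed from gene start to gene end (at most 100 kb). A gene absent from a library's table counted as 0, since 461 of 461 such genes covered by a neighbour's window held 0 reads. Left unused was 1 column tied to none of the samples. The main test was limma 3.58.1 (moderated, with trend; R 4.3.3) of log2(signal + 276.88), the added value being 1 read overlap of the shallowest library. It covered the 4461 genes with signal in 2 or more libraries, and p-values were adjusted by Benjamini-Hochberg (threshold 0.05). The fit was tested on simulated data. Bins were annotated with GENCODE 44 (58 of 58 members matched, 9478 of 9667 genes), a class needing at least 50 bp. Wilson 95% and exact intervals divide overlaps by 1.37. Named members are the called ones (up to 15), the 2 with most signal per family, the 5 with most CFAP20-KO signal and the 5 most negative with at least 4 CFAP20-KO overlaps. Bins printed as sequence were picked after their values were seen. Alternatives covered pseudocount, filter, scaling, variance model, test, region, block and single libraries. Python 3.11.15, numpy 2.4.6, pandas 2.3.3, scipy 1.17.1 and matplotlib 3.10.9 were used.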

Additional observations from a re-analysis of the deposited data

How the results depend on the processing

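Of 13 members called in limma, 0 were called with no filter, with the same window totals or after quantile normalization, nor as shares in the exact test. Without a trend 7 of the 13 were kept among 8 called, with precision weights 5 among 8, with a replicate block 13 among 24 and without the highest bin of each gene 12 among 24. Leaving out 1 library gave 13 to 34. Over all genes limma called 1048, against 1639 with a pseudocount of 10, 0 in the same 3 settings, 446 without a trend, 207 with precision weights, 1695 with a replicate block and 1839 without the highest bin. The exact test called 330 genes on the deposited scale and 13 as shares, and leaving out 1 library gave 1801 to 2367. Same-numbered libraries showed no shared deviation (correlation -0.00061 over 146 genes). With so few CFAP20-KO overlaps per gene this cannot exclude a pairing, and the labels name none. The block is given only here. The summed ratio of 2.93 became 3.85 without the highest bin and 1.35 with the same window totals. The highest bin was picked by the mean of the group mean signals, where 1 overlap of CFAP20-KO replicate 2 counts 21.5 times 1 of tagged-CFAP20 replicate 1. Bins with CFAP20-KO reads were thus removed more readily, which by itself tends to raise the ratio and the calls of that setting. The share in the first 1 kb (5.34% and 6.21%, CFAP20-KO and tagged-CFAP20 means) was 12.1% and 12.0% over the first 2 kb, and 3.79% for tagged-CFAP20 over the first 600 bp, by construction.

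Directions turned for 10 named members, and the cause was not tested. With the same window totals the log2 change was -0.42 for HNRNPC, -0.28 for RBM6, -0.52 for LSM14A, -0.12 for DDX21, -0.28 for SRSF10, -0.16 for RBM41 and -0.48 for DDX60. After quantile normalization it was -0.21 for HNRNPC, -0.066 for RBM6, -0.27 for LSM14A, -0.055 for SRSF10, -0.45 for DDX60 and -0.079 for CPSF4L. As shares it was -0.71 for HNRNPC, -0.34 for SRSF3, -0.55 for RBM6, -0.96 for LSM14A, -0.10 for DDX21, -0.78 for SRSF10, -0.34 for RBM41 and -0.96 for DDX60. Leaving out 1 library, DDX60 ran from -0.34 (without CFAP20-KO replicate 1) to 0.57 and LSM12 from -1.37 to 0.63 (without CFAP20-KO replicate 2). LSM12 stood at 0.81 with a pseudocount of 10 and at 0.13 over the first 3 kb. With precision weights CPSF4L stood at -1.31. The window totals cover the downstream side only. The depth of the CFAP20-KO libraries limits every value here.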
